A study of Mus musculus with 8 samples.

Results

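Genes of tenascins, fibronectin and other matricellular proteins were followed in chromatin of mouse muscle stem cells, either freshly isolated or activated. The genes, chosen by name, were Tnc, Tnxb, Fn1, Postn, Spp1, Thbs1, Thbs2, Sparc, Ccn1 and Ccn2, which are 10 of the 21887 protein-coding genes of the annotation. The measurement was H3K27ac, acetylation of lysine 27 of histone H3, a mark of active promoters and enhancers. Freshly isolated satellite cells (FISC), the stem cells of skeletal muscle, came from C57BL/6 muscle that had no treatment. Activated satellite cells (ASC) came from C57BL/6 muscle 2.5 days after injury with BaCl2 (barium chloride). Each condition had 2 H3K27ac libraries, each with its own deposited MACS2 peak list on build mm10, and 2 inputs that entered no test here. The labels give no sex, age, sorting markers or number of animals, and do not say whether replicates came from separate animals, so the p-values below reflect the scatter of these libraries alone, possibly technical. Peak names in the lists begin with a letter y that no label explains. In such bulk chromatin, fewer acetylated cells and less acetylation per cell cannot be told apart.

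Matricellular proteins are secreted into the extracellular matrix, where they act on cells through integrins, syndecans and other receptors more than they bear load. Fibronectin is the adhesive scaffold on which many of them assemble, and in injured muscle a transient matrix rich in fibronectin and tenascin-C surrounds the stem cells. H3K27ac at such a gene marks chromatin that permits its transcription. It does not measure the RNA or the protein.

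For each gene the kb under peaks were counted in 3 zones. The gene-end zone was the 2 kb on each side of either gene end, 8 kb in all for a gene over 4 kb long. The interior zone was the part of the gene more than 2 kb from both ends. The flanking zone lay outside the gene, more than 2 kb and up to 50 kb away, whatever other gene was there. ASC was compared with FISC by limma across all genes covered in at least 2 libraries of a zone, with Benjamini-Hochberg adjusted p under 0.05 as the call. "Rose" and "fell" are used only for calls.

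The ASC lists were longer than the FISC lists, and this enters every comparison. Peaks numbered 50154 and 54700 in ASC and 45014 and 43092 in FISC, and they covered 49.2 and 57.7 Mb against 34.4 and 33.7 Mb. Read depth per library is unknown from peak lists. The median difference over all genes tested was +0.30 kb at gene ends, +0.53 kb in interiors and +0.96 kb in flanks. It became −0.34, +0.16 and −0.26 kb when each library was divided by its total covered length. That division moved the share of rises among called genes from 88.0 to 20.1% at gene ends, from 81.5 to 63.8% in interiors and from 89.0 to 44.1% in flanks. With lists of equal covered length the shares were 54.7, 38.3 and 46.6%. Those lists kept the peaks of lowest p up to the length of the shortest list. They held 18090 and 14488 peaks in ASC and 42792 and 43092 in FISC, so weak peaks were dropped mainly from ASC. As checks of the labels, the gene ends of Pax7, the regulator that defines satellite cells, held 2.83 and 2.84 kb in ASC and 3.45 and 3.08 kb in FISC. Those of Calcr, a receptor of quiescent satellite cells, held 0 kb in both ASC libraries and 1.31 and 0.947 kb in FISC.

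The promoters of 5 genes show the patterns described below, from gained to narrowed. Each is the 300 bases from 250 before to 50 after a listed start, 5′ to 3′ on the gene's strand, taken from RefSeq on GRCm38.p6, the assembly of mm10. Capitals mark matches on either strand to a word known for a factor. The words were GGAATG for the TEAD factors that YAP binds and TGANTCA for AP-1. For E-box factors the word was CAGCTG and for the SMAD factors of TGF-beta signalling CAGACA. The TATA box was read as TATAAA, and the SRF CArG box was searched too.
Spp1, gained (chr5:104434861-104435160, plus strand): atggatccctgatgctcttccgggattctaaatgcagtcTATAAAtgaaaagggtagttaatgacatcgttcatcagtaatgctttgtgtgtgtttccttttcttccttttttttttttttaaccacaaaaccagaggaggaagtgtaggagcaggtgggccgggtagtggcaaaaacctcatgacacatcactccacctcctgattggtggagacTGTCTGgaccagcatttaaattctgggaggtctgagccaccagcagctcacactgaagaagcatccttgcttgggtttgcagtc
Tnc, widened (chr4:64046966-64047265, minus strand): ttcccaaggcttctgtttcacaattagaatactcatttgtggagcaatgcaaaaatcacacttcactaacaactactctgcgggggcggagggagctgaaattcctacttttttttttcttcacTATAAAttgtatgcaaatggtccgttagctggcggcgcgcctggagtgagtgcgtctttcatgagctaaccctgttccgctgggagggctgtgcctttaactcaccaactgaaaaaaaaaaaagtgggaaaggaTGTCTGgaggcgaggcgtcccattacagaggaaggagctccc
Ccn1, widened (chr3:145649936-145650235, minus strand): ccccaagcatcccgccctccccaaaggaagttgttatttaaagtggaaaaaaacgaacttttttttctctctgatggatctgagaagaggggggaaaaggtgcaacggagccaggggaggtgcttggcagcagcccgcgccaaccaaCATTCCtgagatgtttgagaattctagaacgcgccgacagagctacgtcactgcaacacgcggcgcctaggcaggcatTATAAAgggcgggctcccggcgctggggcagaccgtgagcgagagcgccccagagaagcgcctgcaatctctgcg
Sparc, covered in all 4 libraries (chr11:55420031-55420330, minus strand): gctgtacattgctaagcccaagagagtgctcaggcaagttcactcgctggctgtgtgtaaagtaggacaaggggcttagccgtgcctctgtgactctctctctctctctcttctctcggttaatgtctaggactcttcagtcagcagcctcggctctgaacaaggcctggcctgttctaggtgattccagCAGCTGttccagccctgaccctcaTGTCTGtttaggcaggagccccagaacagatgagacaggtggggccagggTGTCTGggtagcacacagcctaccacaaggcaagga
Thbs2, narrowed (chr17:14694213-14694512, minus strand): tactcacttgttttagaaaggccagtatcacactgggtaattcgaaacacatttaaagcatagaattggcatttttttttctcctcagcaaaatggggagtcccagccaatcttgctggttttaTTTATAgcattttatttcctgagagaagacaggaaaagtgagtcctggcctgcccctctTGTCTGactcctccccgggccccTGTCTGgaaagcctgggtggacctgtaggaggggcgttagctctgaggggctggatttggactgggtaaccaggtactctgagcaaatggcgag

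Peaks lay on these 300 bases as follows. In Spp1 they covered 90 and 105 bases in the ASC libraries and 0 in both FISC libraries. In Tnc they covered all 300 in both ASC libraries against 186 and 0 in FISC. Ccn1 and Sparc were covered over all 300 bases in every library, so what differed at Ccn1 lay outside this stretch. Thbs2 was covered over 0 and 215 bases in ASC and over all 300 in both FISC libraries.

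The promoter table listed 10 starts for 7 of the genes. Fn1, Thbs1 and Ccn2 had no entry. The 2 listed promoters of Tnc overlap and share matches, so genes are counted beside promoters. The SMAD word occurred in 4 of the 7 genes (Tnc, Sparc, Thbs2 and Spp1) and in 5 of the 10 promoters. It was found in 18.9% of 21263 promoters of protein-coding genes. The TATA box word occurred in 5 of the 7 genes and in 6 of the 10 promoters, and in 12.6% of all promoters. In Ccn1 it began 25 bases before the start and in Postn 26 bases before. In Tnc, Thbs2 and Spp1 it lay farther out, 126 to 211 bases before a listed start. Ccn1 also held the only TEAD match, written CATTCC on this strand and beginning 103 bases before the start, a word found in 13.6% of promoters. Sparc held the only E-box, found in 15.6%, and Tnxb the only AP-1 match, found in 6.99%. No promoter of these genes held a CArG box, found in 1.52% of all. No matches overlapped, and a match is only a run of letters in this window.

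**Figure D1:**
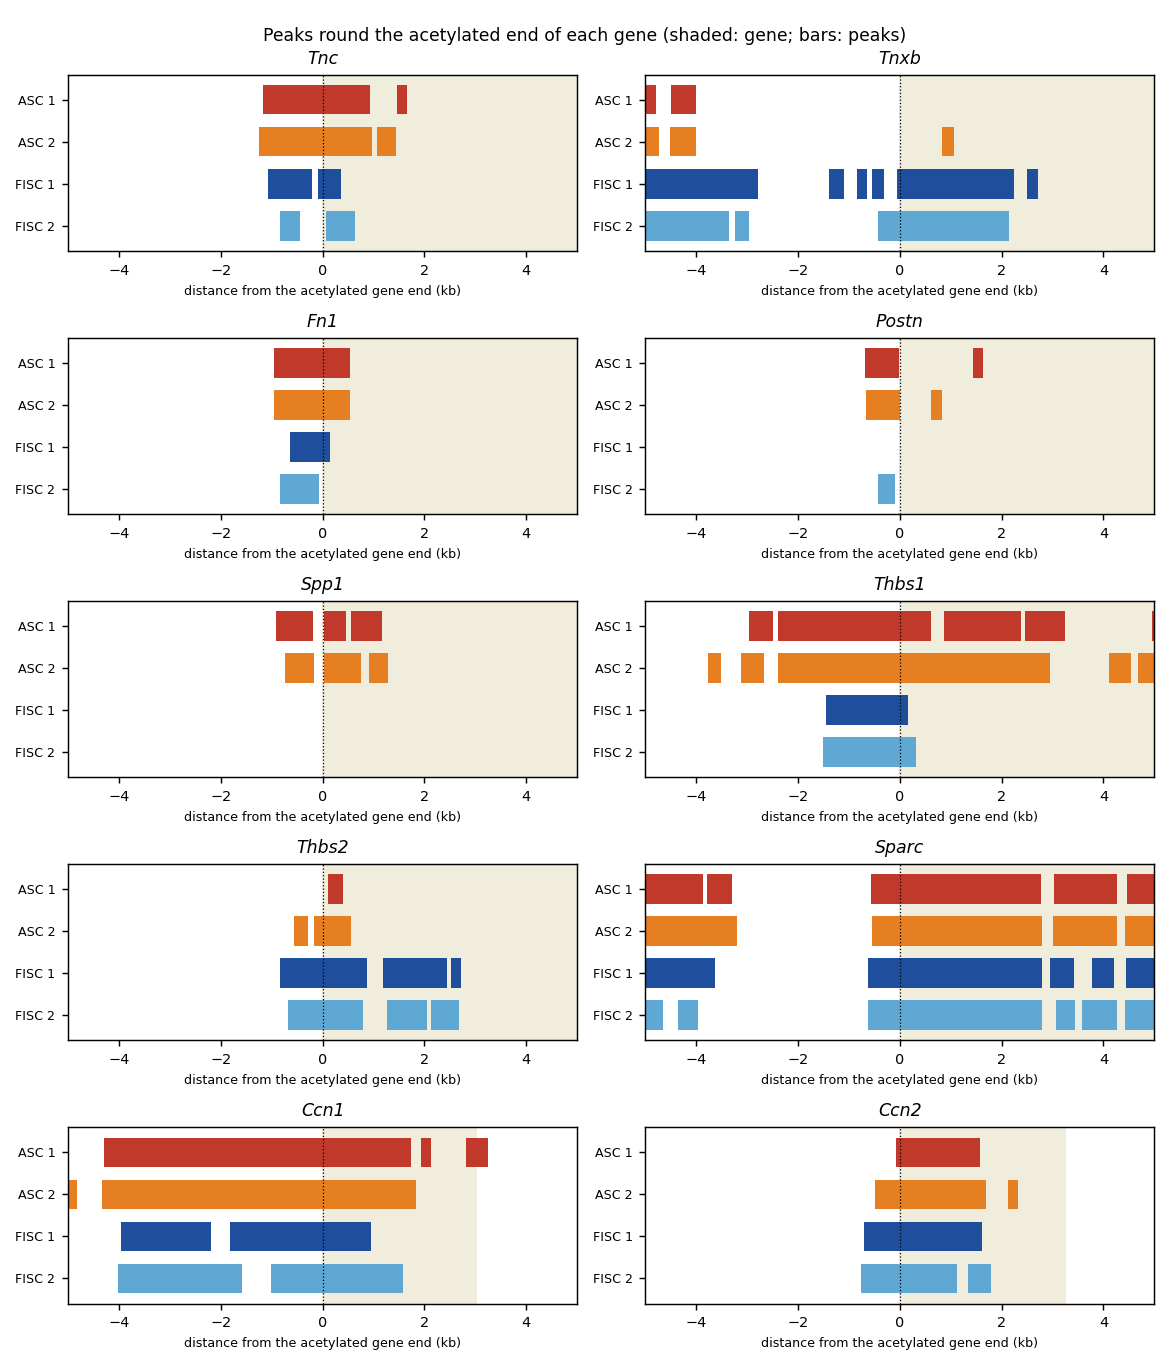
Peaks within 5 kb of the acetylated end of each gene, 1 row per library, with the gene shaded and distance in kb running into the gene. Spp1 has peaks in the ASC rows alone and Sparc nearly the same peak in all 4 rows, whereas Tnxb and Thbs2 have their wide peaks in the FISC rows.

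Acetylation sat at 1 end of most of these genes. In 8 of the 10 genes a single gene end was covered, and both ends were covered in the 2 shortest, Ccn1 and Ccn2, whose end windows overlap. In all 7 genes whose strand is listed, the more covered end was on the start side. At gene ends 6 genes rose in ASC (Tnc, Fn1, Postn, Spp1, Thbs1, Ccn1), 2 fell (Tnxb, Thbs2) and 2 were not called (Sparc, Ccn2). Of all 12924 genes tested there, 26.5% rose and 3.61% fell. Spp1 passed the filter of 2 covered libraries there through ASC alone. After division by total length 3 members rose and 4 fell, against 1188 and 4735 of the 12924 genes tested. With lists of equal covered length 3 rose and 2 fell of 9 members tested, against 1908 and 1580 of 12103 genes. The median difference was +0.71 kb over the members and +0.30 kb over all genes tested. The ASC and FISC libraries did not overlap in 6 members that were higher and 3 that were lower in ASC, against 62.1 and 11.0% of all genes tested.

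**Figure D2:**
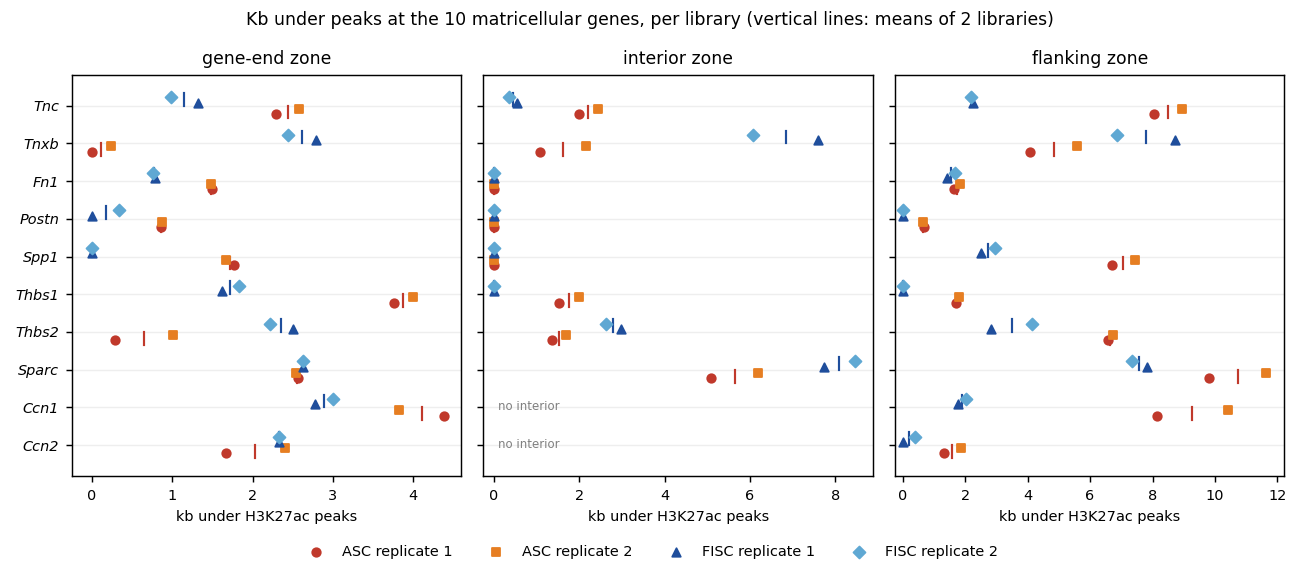
Kb under peaks at each gene in the 3 zones, 1 point per library, with vertical lines at the means of 2 libraries. At gene ends ASC points lie to the right for Tnc, Fn1, Postn, Spp1, Thbs1 and Ccn1 and to the left for Tnxb and Thbs2, and in flanks Tnxb alone has its ASC points to the left.

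The tenascins, hexameric or elongated glycoproteins that loosen or organise the matrix, changed in opposite directions. Tenascin-C, encoded by Tnc (chr4:63959785-64047015), is the form of injured and developing tissue. Its gene ends held 2.30 and 2.58 kb under peaks in ASC (replicates 1 and 2, in this order throughout) and 1.32 and 0.988 kb in FISC. Neither FISC library reached either ASC library, and Tnc rose by 1.29 ± 0.184 kb (SE, limma adjusted p = 0.0102). The call was lost without FISC replicate 2 (1.12 kb). After division by total length the difference was 0.52 kb and was not called.

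Inside Tnc nearly all of the interior signal lay in 2 neighbouring regions, at 43.1 to 44.6 kb and 44.7 to 45.5 kb from the acetylated end. The farther one was in both ASC libraries but in no FISC library. The interior zone held 1.99 and 2.44 kb in ASC and 0.539 and 0.356 kb in FISC, a rise of 1.76 ± 0.241 kb (limma adjusted p = 0.00978). It was not called without FISC replicate 1 (1.86 kb) or FISC replicate 2 (1.67 kb), nor with lists of equal covered length (0.69 kb). The flank of Tnc, where no other protein-coding gene lies, held 8.05 and 8.93 kb against 2.26 and 2.18 kb. This rise of 6.27 ± 0.541 kb (limma adjusted p = 5.8e-04) was called under all 14 alternatives run.

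The flanking peaks of Tnc were all on the side before its start. Regions, formed by merging overlapping peaks of the 4 lists, were seen in all libraries at 10.95 to 13.17 kb, 29.4 to 31.2 kb, 31.3 to 32.1 kb and 36.1 to 37.9 kb before the start. The first of these held 1837 and 2002 bases of peak in ASC and 604 and 213 in FISC. Its deposited fold enrichment over background, the authors' value for the strongest peak, was 13.2 and 15.0 in the ASC lists and 4.04 and 3.93 in the FISC lists. A region of 2262 bases at 39.15 to 41.4 kb was present in both ASC libraries but in no FISC library.

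Tenascin-X, encoded by Tnxb (chr17:34660453-34719815), binds collagen fibrils in connective tissue at rest. At its gene ends lay 0 and 0.233 kb in ASC and 2.80 and 2.44 kb in FISC. Tnxb fell by 2.50 ± 0.178 kb (limma adjusted p = 0.0026), a call kept under all 13 alternatives in which it was tested. Of all genes tested, 0.108% had a lower difference. The covered stretch ran from 0.55 kb outside to 2.24 kb inside the lower end of the gene. The start listed in the promoter table lies 10.1 kb further in, and no library had a peak within 2 kb of it.

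The interior of Tnxb fell as well. It held 1.07 and 2.16 kb in ASC and 7.6 and 6.08 kb in FISC, a difference of −5.23 ± 0.741 kb (limma adjusted p = 0.0106), called under all 12 alternatives. In the interior, 5 regions were present in both FISC libraries but in no ASC library. The widest had 1861 bases and lay 31.9 to 33.7 kb inside the gene. One region of 782 bases at 21.0 to 21.8 kb had peaks in both ASC libraries but in no FISC library, against the direction of the rest. The flank held 4.08 and 5.58 kb against 8.72 and 6.87 kb and fell by 2.96 ± 0.875 kb (limma adjusted p = 0.0317). Part of that loss touched the neighbouring gene Atf6b, 5.38 kb away. Within that gene and 2 kb round it the flank held 2.17 and 3.27 kb in ASC and 4.34 and 3.996 kb in FISC. Away from other genes the difference was −0.73 kb and was not called, and without FISC replicate 1 the whole flank (−2.04 kb) was not called either.

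Fibronectin, encoded by Fn1 (chr1:71585473-71653280), carried 1 peak per library at the upper end of the gene and none in the interior. The gene ends held 1.497 and 1.479 kb in ASC and 0.788 and 0.758 kb in FISC. Fn1 rose by 0.72 ± 0.109 kb (limma adjusted p = 0.0118), and the mean breadth in ASC was 1.92 times that in FISC. Without FISC replicate 1 (0.73 kb) or FISC replicate 2 (0.70 kb) the call was lost, as it was after division by total length (0.23 kb). The summit enrichment in the authors' lists was 11.1 in both ASC libraries and 5.11 and 5.24 in FISC. The interior of 63.8 kb held 0 kb in all 4 libraries. The flank held 1.63 and 1.82 kb against 1.42 and 1.67 kb, all of it within or near Atic, an enzyme gene of purine synthesis. This difference of 0.18 kb was not called (95% interval −0.35 to 0.71 kb, limma adjusted p = 0.507) and became −0.57 kb after division by total length.

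Periostin, encoded by Postn (chr3:54359267-54391041), cross-links collagen in wounds. Its gene ends held 0.855 and 0.872 kb in ASC and 0 and 0.336 kb in FISC. The rise of 0.70 ± 0.138 kb (limma adjusted p = 0.0227) was lost when any of the 4 libraries was left out, at 0.70 kb without ASC replicate 1, 0.69 kb without ASC replicate 2, 0.53 kb without FISC replicate 1 and 0.86 kb without FISC replicate 2. The single FISC peak had a deposited fold enrichment of 2.37, and the ASC peaks had 9.62 and 11.4. No library had a peak in the interior. In the flank a region 30.5 to 31.47 kb before the start held 676 and 648 bases in ASC and none in FISC. The flank rose by 0.66 ± 0.107 kb (limma adjusted p = 0.00379), a smaller difference than the +0.96 kb median of all flanks tested. This flank passed the filter of 2 covered libraries through ASC alone.

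Osteopontin, encoded by Spp1 (chr5:104435111-104441053), is a secreted integrin ligand and cytokine. The gene-end zone of Spp1 held 1.77 and 1.67 kb in ASC and 0 kb in both FISC libraries. Spp1 rose by 1.72 ± 0.105 kb (limma adjusted p = 0.0022). Its strongest peaks had deposited fold enrichments of 4.91 and 6.73. With peaks of −log10 q of at least 5 alone, the difference was 0.87 kb and was not called. The gene ends of Spp1 passed the filter of 2 covered libraries through ASC alone. Spp1 could not be tested without either ASC library, since a single covered library was then left. With lists of equal covered length its gene ends had peaks in fewer than 2 libraries, so the gain could not be tested there either. Its interior of 1.94 kb held no peak in any library.

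The flank of Spp1 combined its own region with a neighbour's. It held 6.71 and 7.42 kb in ASC and 2.49 and 2.96 kb in FISC, a rise of 4.34 ± 0.507 kb (limma adjusted p = 0.00123). Of this, 4.58 and 5.36 kb against 2.49 and 2.96 kb lay at Pkd2, a calcium channel gene 12.9 kb away. The rest, 2.14 and 2.06 kb in ASC and 0 kb in FISC, lay away from other genes. It was mainly a region of 2155 bases 26.2 to 28.3 kb before the start, with deposited fold enrichments of 8.12 and 9.84. Within 20 kb of the gene the flank difference was 0.31 kb and was not called.

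The thrombospondins, calcium-binding glycoproteins that limit blood vessel growth and, for thrombospondin-1, activate latent TGF-beta, also moved apart at their gene ends. Thbs1 (chr2:118111876-118127133) held 3.76 and 4 kb in ASC and 1.62 and 1.83 kb in FISC. The 4 kb in ASC replicate 2 were the whole window at that end. The rise was 2.15 ± 0.172 kb (limma adjusted p = 0.00319), and 98.01% of genes tested had a lower difference. In that library a single peak of 5345 bases spanned from 2.40 kb outside to 2.94 kb inside the lower end, and in ASC replicate 1 the same stretch held separate peaks of 3003, 1513 and 783 bases. In FISC the peaks were 1621 and 1827 bases wide and ended 0.167 and 0.324 kb inside the gene. With lists of equal covered length the difference was 1.59 kb and was not called, nor was it within 1 kb of the ends (0.63 kb).

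The rest of the Thbs1 locus was covered in ASC alone. Its interior held 1.53 and 1.99 kb in ASC and 0 kb in both FISC libraries, a rise of 1.76 ± 0.208 kb (limma adjusted p = 0.00755). Its flank held 1.70 and 1.79 kb against 0 kb in both, a rise of 1.74 ± 0.143 kb (limma adjusted p = 5.1e-04). Both passed the filter of 2 covered libraries through ASC alone. They were called under every alternative that tested them, 9 for the interior and 12 for the flank. Settings that left fewer than 2 covered libraries dropped them, so these counts are no independent support. Neither could be tested without an ASC library, and with lists of equal covered length the interior had peaks in fewer than 2 libraries and was not tested. The flank regions lay 2.49 to 3.13 kb and 9.57 to 10.3 kb outside the gene.

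Thbs2 (chr17:14665500-14694262) fell at its gene ends and rose in its flank. Its gene-end zone held 0.286 and 1.01 kb in ASC and 2.51 and 2.21 kb in FISC. Thbs2 fell by 1.71 ± 0.275 kb (limma adjusted p = 0.0135), and 0.379% of genes tested had a lower difference. A region 1.19 to 2.72 kb inside the gene was present in both FISC libraries but in no ASC library. The call was lost without FISC replicate 1 (−1.56 kb) and without FISC replicate 2 (−1.86 kb). It was also lost within 1 kb of the ends (−0.94 kb), on the log2(kb + 0.1) scale (−1.91) and with no filter on low values (−1.71 kb).

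In the interior of Thbs2 the libraries held 1.37 and 1.69 kb in ASC and 2.98 and 2.62 kb in FISC, a fall by 1.27 ± 0.265 kb (limma adjusted p = 0.0247). It was not called without ASC replicate 1 (−1.11 kb), FISC replicate 1 (−1.09 kb) or FISC replicate 2 (−1.45 kb). The flank, with no other protein-coding gene in it, rose: it held 6.56 and 6.74 kb in ASC and 2.84 and 4.15 kb in FISC (+3.15 ± 0.595 kb, limma adjusted p = 0.00673). Most of the difference came from regions 24.0 to 26.3 kb and 40.8 to 42.3 kb before the start. The first held 2182 and 2188 bases in ASC and 474 and 879 in FISC. The flank call was lost without FISC replicate 1 (2.50 kb). It was also lost at equal covered length (0.15 kb) and after division by total length (0.97 kb).

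Sparc (chr11:55394159-55420080) encodes osteonectin, a collagen chaperone and abundant product of matrix-forming cells, and was broadly acetylated in both conditions. Its gene ends held 2.56 and 2.54 kb in ASC and 2.63 kb in both FISC libraries. The difference of −0.08 kb was not called (95% interval −0.43 to 0.27 kb, limma adjusted p = 0.68). The peak over the start was 3330 and 3344 bases wide in ASC and 3426 and 3429 in FISC, with fold enrichments of 17.2, 19.4, 14.0 and 13.1. After division by total length the same gene ends were called lower (−1.28 kb).

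Within Sparc, summed coverage was lower in ASC, though not in every region. The interior held 5.10 and 6.18 kb in ASC and 7.72 and 8.46 kb in FISC, a fall by 2.45 ± 0.65 kb (limma adjusted p = 0.0436). The region 6.17 to 8.34 kb inside the gene differed most, with 0 and 946 bases in ASC and 1974 and 1932 in FISC. The region 2.95 to 4.26 kb inside went the other way, with 1237 and 1258 bases in ASC and 892 and 1048 in FISC. At 4.42 to 6.02 kb the bases overlapped, and the strongest fold enrichment was 9.32 and 10.1 in ASC and 5.56 and 6.54 in FISC. At 13.1 to 15.15 kb it was 8.72 and 7.25 against 7.53 and 7.07. The interior call, close to the threshold, was lost without ASC replicate 1 (−1.91 kb), FISC replicate 1 (−2.82 kb) or FISC replicate 2 (−2.08 kb). It was also lost with peaks of −log10 q of at least 5 (−1.07 kb), and on the log2(kb + 0.1) scale (−0.52).

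The flank of Sparc rose as counted but not away from other genes. It held 9.82 and 11.6 kb in ASC and 7.82 and 7.33 kb in FISC (+3.16 ± 0.956 kb, limma adjusted p = 0.0345). At Atox1, a copper chaperone gene 26.6 kb away, the flank held 3.64 and 4.23 kb in ASC and 0.897 and 1.10 kb in FISC. Away from other genes it held 4.22 and 5.24 kb against 5.25 and 4.53 kb, and the difference was −0.16 kb. The call was also lost without FISC replicate 1 (3.40 kb) or FISC replicate 2 (2.92 kb), and the value became −0.94 kb after division by total length.

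**Figure D3:**
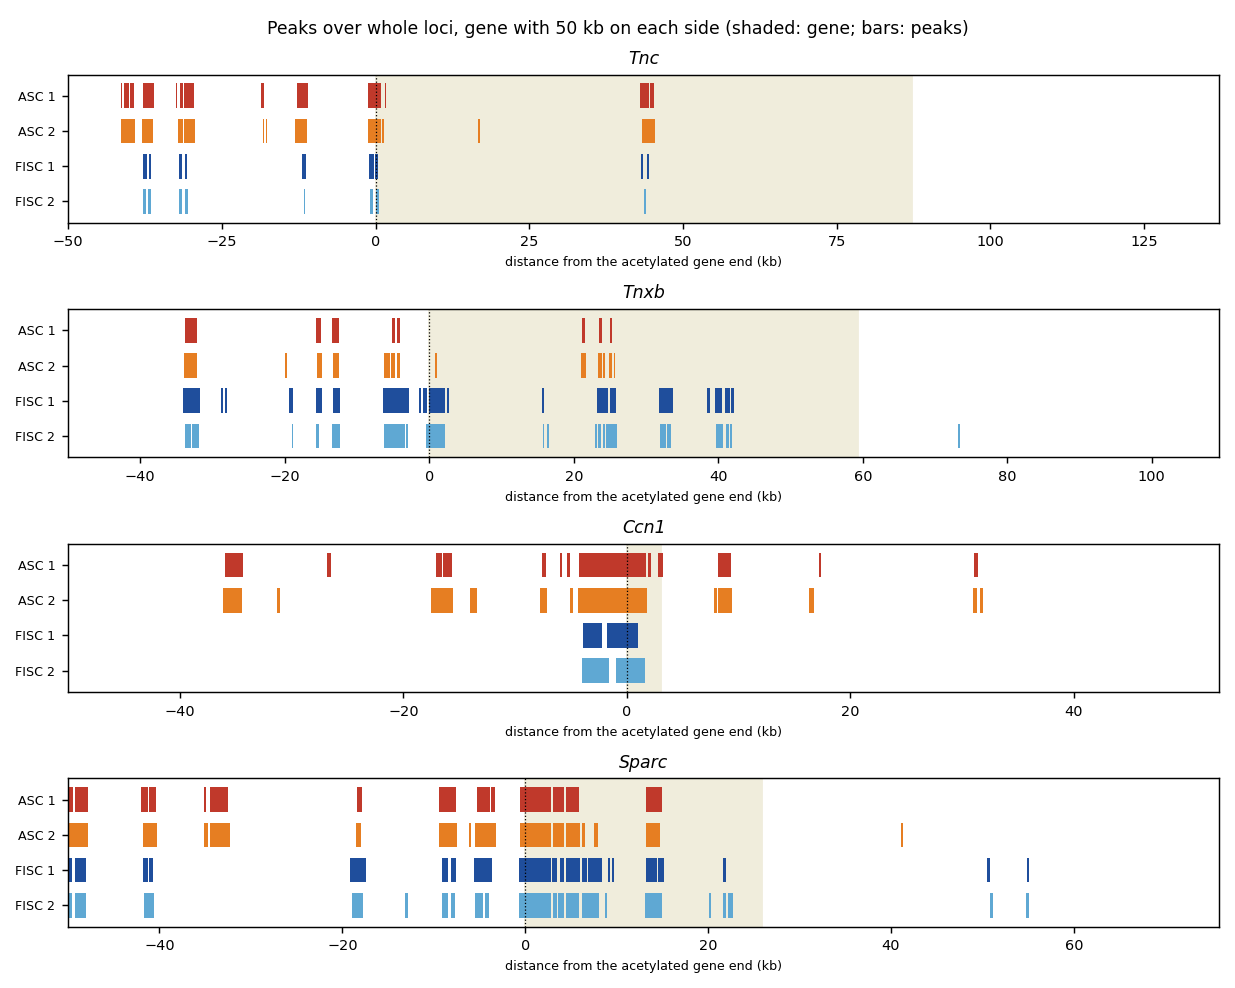
Peaks over 4 whole loci with 50 kb on each side, 1 row per library, the gene shaded and distance in kb from the acetylated end running into the gene. The ASC rows of Tnc and Ccn1 hold more and wider peaks outside the gene, the FISC rows of Tnxb hold more peaks over its end and interior, and the rows of Sparc share most peaks.

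The CCN proteins are secreted adapters that bind integrins and heparan sulphate, and Ccn1 and Ccn2 are widely used as readouts of YAP and TEAD activity. Ccn1 (chr3:145646971-145649985), formerly Cyr61, had a zone of 7.01 kb that took in the whole gene. It held 4.38 and 3.83 kb in ASC and 2.78 and 3.01 kb in FISC and rose by 1.21 ± 0.246 kb (limma adjusted p = 0.0239). In ASC a peak of 6040 and 6161 bases ran from 4.33 kb before the start into the gene. In FISC the same stretch held separate peaks, the widest of 2778 and 2590 bases. Together they covered 4539 and 5026 bases. The strongest fold enrichment there was 21.8 and 25.6 in ASC and 9.95 and 10.99 in FISC. The call was lost without FISC replicate 1 (1.10 kb) or FISC replicate 2 (1.33 kb), and the value became −0.32 kb after division by total length.

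The flank of Ccn1 had the largest rise of the 10 flanks. It held 8.13 and 10.4 kb in ASC and 1.76 and 2.02 kb in FISC, all of it away from other protein-coding genes. The rise of 7.38 ± 0.824 kb (limma adjusted p = 0.00107) was above the difference of 96.1% of genes tested and was called under all 14 alternatives. In that flank 5 regions were present in both ASC libraries but in no FISC library. The widest, 1949 and 1820 bases, lay 15.6 to 17.5 kb and 34.4 to 36.2 kb before the start, and another of 1265 bases lay beyond the far end. The FISC peaks in this zone were part of the domain just before the start.

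Ccn2 (chr10:24595442-24598683), formerly Ctgf, encodes a fibrosis factor induced by TGF-beta. At the Ccn2 ends lay 1.66 and 2.40 kb in ASC and 2.32 and 2.33 kb in FISC. The groups overlapped, and the difference of −0.30 kb was not called (95% interval −0.99 to 0.39 kb, limma adjusted p = 0.423). Its sign depended on ASC replicate 1, without which it was +0.07 kb, and after division by total length it was called lower (−1.34 kb). The flank held 1.32 and 1.86 kb in ASC and 0 and 0.394 kb in FISC and rose by 1.39 ± 0.238 kb (limma adjusted p = 0.00463). These bases included neighbouring regions 5.22 to 6.62 kb before the acetylated end. The nearer one was in both ASC libraries but in no FISC library.

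In flanks 8 of 10 members rose and Tnxb fell, against 46.0 and 5.71% of the 15985 genes tested. After division by total length 6 rose and 1 fell, against 3912 and 4965 of the 15985 genes tested. With lists of equal covered length 4 rose and 1 fell of 8 members tested, against 2698 and 3096 of 14678 genes. The median was +2.45 kb over the members and +0.96 kb over all. In interiors 5 members could be tested: 2 rose (Tnc, Thbs1) and 3 fell (Tnxb, Thbs2, Sparc), against 42.8 and 9.73% of 6528 genes tested. The median was −1.27 kb over those 5 and +0.53 kb over all. Ccn1 and Ccn2 have no interior by this definition, and Fn1, Postn and Spp1 had none covered. The Thbs1 interior and the flanks of Thbs1 and Postn passed the filter of 2 covered libraries through ASC alone. The ASC and FISC libraries did not overlap in 2 higher and 3 lower interiors, against 64.1 and 16.9% of genes tested, and in 8 higher and 1 lower flanks, against 68.7 and 11.1%.

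**Figure D4:**
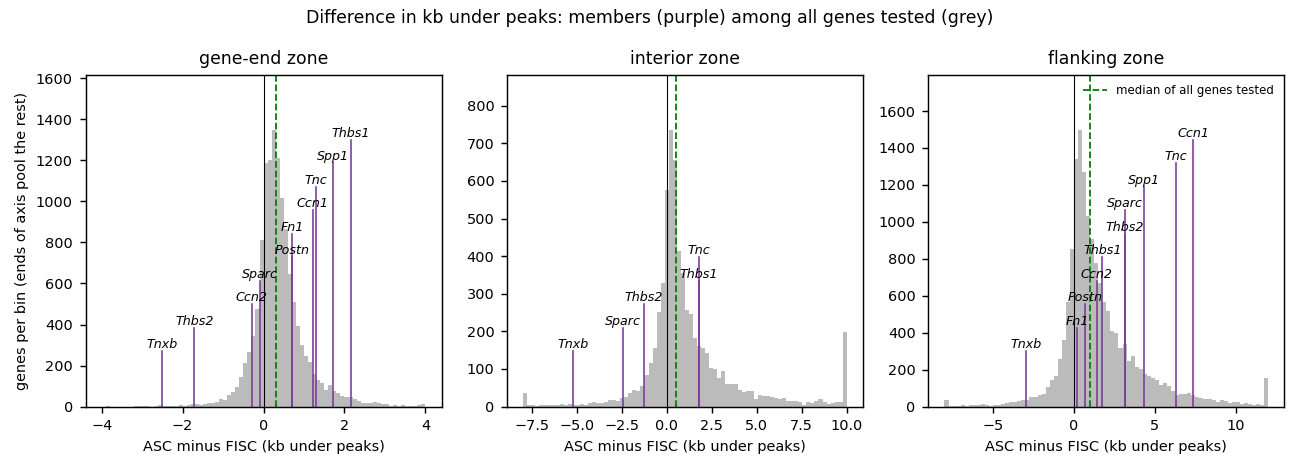
Distribution of ASC minus FISC differences in kb over all genes tested in each zone (grey, with a dashed line at the median) and the members (purple lines, whose height carries no value). Tnxb lies in the lower tail in each zone, whereas Thbs1 at gene ends and Tnc and Ccn1 in flanks lie in the upper tail.

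Counted as regions, 123 lay at the 10 genes or within 50 kb of them. Of these 33 had a peak in all 4 libraries, 21 in both ASC libraries but in no FISC library, 11 in both FISC libraries but in no ASC library, 5 in 3 libraries and 53 in a single one. Over all 72585 regions of the 4 lists, 26.9% were in all 4 libraries against 26.8% at the members. The shares were 19.9 against 17.1% in both ASC libraries alone and 7.30 against 8.94% in both FISC libraries alone. These shares were close. In a single library lay 37.1% of all regions against 43.1% at the members, and in 3 libraries 6.6 against 4.1%. In flanks, regions of both ASC libraries alone numbered 16 of 71 and those of both FISC libraries alone numbered 2. In interiors the numbers were 3 and 8 of 31, and the 8 lay in Tnxb (5), Thbs2 (2) and Sparc (1). Shares of all regions by zone were not counted, so these zone numbers have no background beside them. Ccn1 had the most regions of ASC alone (5), and Tnxb the most of FISC alone (6). Fn1 had 2 regions, both in all 4 libraries.

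Other genes of the system were read from a list of 40, made of 20 relatives of the members and 20 receptors or bound partners. At gene ends 6 rose and 0 fell of the 25 tested, with a median difference of −0.04 kb, against 26.5 and 3.61% of all genes. In interiors 13 rose and 1 fell of 25 (median +0.98 kb), against 42.8 and 9.73%. In flanks 20 rose and 3 fell of 34 (+1.42 kb), against 46.0 and 5.71%. Some of the rises in interiors and flanks passed the covered-library filter through ASC alone, as given below. The largest called differences at gene ends were in Itgb6, an integrin subunit that pairs with alpha v (3.50 and 3.14 kb in ASC, 0.749 and 0.292 kb in FISC), and Ccn4, a further CCN gene (4 kb in both ASC libraries, 2.33 kb in both FISC libraries). Next were Itga5, the alpha subunit of the main fibronectin receptor (2.63 and 3.01 against 1.56 and 1.64 kb), and the fibulin gene Fbln5 (1.31 and 1.12 against 0.476 and 0.225 kb).

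Of the receptors and bound partners, 8 of 16 interiors tested rose and 0 fell, and 11 of 17 flanks rose and 2 fell. Of the relatives, 5 of 9 interiors rose and 1 fell, and 9 of 17 flanks rose and 1 fell. Among them, interiors of Tnn, Smoc2 and Spock1 and flanks of Smoc1, Smoc2 and Ccn3 passed the covered-library filter through ASC alone. The Tgfbi interior passed it through FISC alone. Among the largest called differences, in interiors Itgb6 held 34.1 and 37.2 kb against 6.80 and 7.26 kb, and Cd44, a receptor for osteopontin and hyaluronan, held 19.1 and 22.2 kb against 3.42 and 4.19 kb. Smoc2, a relative of Sparc, held 6.26 and 6.17 kb against 0 kb in both FISC libraries. The syndecan gene Sdc1 held 3.62 and 4.99 kb against 1.07 and 0.969 kb. In flanks Ccn4 held 19.7 and 23.2 kb against 5.57 and 6.68 kb, and Cd44 held 14.1 and 17.6 kb against 1.59 and 1.02 kb. The thrombospondin receptor gene Cd47 held 14.2 and 17.0 kb against 1.95 and 2.18 kb, and Itgav, the alpha v subunit, 5.68 and 6.10 kb against 0.741 and 0.334 kb. Falls, named here after their values were seen, were those of Tgfbi in interior and flank and of Itga8 and Itga9 in flanks. The flank of Tgfbi held 3.98 and 4.86 kb in ASC and 8.52 and 8.88 kb in FISC.

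Markers of cell types were read at gene ends, since fibroblasts, macrophages and tendon cells also make these proteins. All 10 satellite cell markers were covered, with 27.2 and 28.8 kb in sum in ASC and 31.3 and 34.7 kb in FISC (2 rose, 3 fell). Fibro-adipogenic and fibroblast markers summed to 6.66 and 7.57 kb in ASC and 6.25 and 6.26 kb in FISC. Of the 10, 5 were tested (Ly6a rose, Dpt and Cd34 fell) and Pdgfra, Col1a1, Dcn, Lum and Mfap5 held 0 kb in every library. Myeloid markers summed to 5.08 and 6.88 kb against 3.19 and 3.06 kb. Cd14 rose of 3 tested, and Ptprc, Adgre1, Itgam and Lyz2 held 0 kb in every library.

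The other lists had smaller covered sums or mixed calls. Smooth muscle and pericyte markers summed to 12.8 and 14.7 kb in ASC and 14.4 and 13.1 kb in FISC (1 rose and 2 fell of 6 tested, Rgs5 at 0 kb). Endothelial markers summed to 1.22 and 1.78 kb against 2.37 and 2.56 kb (0 calls of 2 tested), with Pecam1, Cdh5, Emcn and Tie1 at 0 kb. Schwann markers summed to 4.32 and 4.28 kb against 2.76 and 2.43 kb (Ngfr rose of 2 tested), with Sox10 and Cdh19 among those at 0 kb. Tendon markers summed to 4.39 and 4.64 kb against 2.83 and 2.87 kb, all of it at Scx, which rose, with the other 5 at 0 kb. Sdc4 and Thbs4 stand both in a marker list and in the list of relatives and receptors. In flanks, where 8 members rose, 46.0% of all genes tested rose and 5.71% fell. Markers of other cell types were read there too. Of those tested, 3 of 4 myeloid flanks rose (37.4 and 44.8 kb in sum in ASC, 28.8 and 26.7 kb in FISC), 3 of 4 Schwann flanks (21.7 and 25.8 against 11.8 and 10.8 kb) and 3 of 5 tendon flanks (21.3 and 25.9 against 15.6 and 16.4 kb). Endothelial flanks gave 2 rises of 6, smooth muscle and pericyte flanks 4 rises and 1 fall of 8, fibro-adipogenic and fibroblast flanks 1 rise and 2 falls of 8, and satellite cell flanks 2 rises and 2 falls of 9. The part of other cell types in the differences at the members was not tested.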

How the data were processed

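Each H3K27ac library has 1 deposited MACS2 narrow peak list. Chromatin was bound by antibody, tagmented while bound and read from 1 end, per the labels' protocols. The submitters' processing notes name bcl2fastq 2.19, BWA, Picard, MACS2 and build mm10. For settings, duplicate removal and the role of the inputs, details were not given in the sources used here. In the files, the authors' peak columns hold fold enrichment at the summit (a ratio), −log10 values of p and q as deposited, and a deposited score made from q. Fold was used only to describe peaks.

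Gene positions came from RefSeq on GRCm38.p6. All 10 members matched by symbol. Kb under peaks were fitted with limma 3.58.1 in R 4.3.3 (eBayes with trend, linear scale, no scaling between libraries) for genes covered in at least 2 libraries. The threshold was an adjusted p of 0.05. The fit was also run on simulated data that lacked the difference in list length between ASC and FISC. Its shifts were larger than several differences called here, so it tests neither point. The members, lists and tests were chosen with earlier results of these data known. Of the list of relatives and receptors, the 4 largest called differences per zone are named. Alternatives were other list lengths, cut-offs, zones, filters and scales, a replicate block and leaving out each library. A crossed pairing of replicates, chosen after seeing the data, is also counted among the alternatives. One marker gene is not reported here.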

Additional observations from a re-analysis of the deposited data

How the results depend on the processing

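Read depth is unknown from peak lists, so no counting error can be given, and 2 libraries a group limit every test. Over the alternatives, 254 values of single members kept direction and call and 59 kept direction but lost the call. Another 2 gained a call and 6 changed sign. The crossed pairing given below is included in these counts. After division by total covered length, 1188 genes rose and 4735 fell at gene ends, 1335 fell in interiors, and 3912 rose and 4965 fell in flanks. At gene ends 3 members then rose (Postn, Spp1, Thbs1) and 4 fell (Ccn2, Sparc, Thbs2, Tnxb). The members whose sign changed there were Ccn1 at gene ends (−0.32 kb) and Fn1 (−0.57 kb) and Sparc (−0.94 kb) in flanks. With lists of equal covered length, 1908 genes rose and 1580 fell at gene ends, 992 and 1598 in interiors, and 2698 and 3096 in flanks. Members that rose then numbered 3, 0 and 4 in these zones. With peaks of −log10 q of at least 5, 423 interiors fell, and 1 member fell in interiors and 0 in flanks. Within 1 kb of the ends 1912 genes rose and 226 fell, with 3 and 1 members, and within 5 kb Sparc had +0.32 kb. With the listed starts alone 1 member fell, as with log2(kb + 0.1). With no filter on low values, 1245 genes rose and 167 fell at gene ends (2 and 1 members), and 4443 and 484 in flanks (5 and 0). Over whole gene spans 5 members rose. Flanks of 20 kb gave 4381 rises, 4 of them members, and flanks of 100 kb gave 0 member falls. Flanks without other genes gave 4180 rises and 0 member falls, and Sparc had −0.16 kb.

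Leaving out 1 library at a time gave 677 to 3530 rises and 62 to 373 falls at gene ends, the lowest without FISC replicate 2. The members rising there numbered 2 to 4 and those falling 1 to 2. Interiors gave 1016 to 1862 rises and 153 to 433 falls, with 1 to 1 and 1 to 3 members. Flanks gave 4710 to 8340 rises and 522 to 1140 falls, with 6 to 7 and 0 to 1 members. Of the members, Ccn2 changed sign at gene ends, with a range of −0.66 to 0.0705 kb, the highest without ASC replicate 1. Regions in every ASC library kept and in no FISC library kept then numbered 21 to 41, and those the other way round 11 to 21. The highest counts, 41 and 21, came where that group was down to a single library. With all libraries, regions of both FISC libraries alone numbered 7 with peaks within 500 bases joined and 6 with peaks of −log10 q of at least 5. Spp1 at gene ends, Thbs1 in the interior, and Postn and Thbs1 in flanks could not be tested without an ASC library. With lists of equal covered length, Spp1 at gene ends, Thbs1 in the interior, and Postn and Ccn2 in flanks were covered in fewer than 2 libraries and not tested.

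Replicate numbers are shared between the groups, but same-numbered libraries did not deviate together (r = −0.02, 0.06 and −0.12 across genes at gene ends, in interiors and in flanks). With a replicate block, 3001 genes rose and 432 fell at gene ends, 2746 and 593 in interiors, and 7412 and 983 in flanks. Sparc in the interior lost its call under the block, and no other member gained or lost one. The crossed pairing, chosen after seeing the data, gave 4186 and 624, 2870 and 631, and 7969 and 1061.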
